A study of Mus musculus with 8 samples.

Results

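Blood formation is steered by a small set of lineage transcription factors, and 10 of them were followed here across trafficked maternal cells and recipient cells. They were taken as a listed set of genes by symbol, out of 25066 genes counted in 1 or more of the libraries. The 5 erythroid factors were Gata1, Klf1, Tal1, Gfi1b and Nfe2, the 4 myeloid factors were Spi1, Cebpa, Cebpe and Gfi1, and Myb stood for progenitors. All 10 were matched, and the counts of the erythroid factors were set against those of the myeloid factors in each library.

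The study asked how depleting maternal dendritic cells (DC) before intrauterine transplantation (IUT) bears on maternal cells that cross to the fetus and on the cells of the fetus itself. RNA was sequenced in 8 libraries, 1 for each origin (maternal or recipient) and treatment, each pooled from several pups aged 1 week. The treatments were uninjected, DC control mIUT (maternal donor cells), DC control pIUT (paternal donor cells) and DC-depleted pIUT. With 1 library a group, a difference is one between 2 libraries and has no replicate check.

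All pups were F1 offspring of CD11c-DTR dams on the B6 background and BALB/c males. In CD11c-DTR mice the Itgax promoter drives a diphtheria toxin receptor, so that diphtheria toxin (DT) removes CD11c+ cells for a limited time. Dams of the DC-depleted pIUT group received DT at 5 ng/g on embryonic day 13. Each fetus of an IUT group was injected with 5000000 bone marrow cells on embryonic day 14, of B6 origin in mIUT and of BALB/c origin in pIUT. Uninjected pups came from dams with or without DT, in proportions that are not given. Maternal cells were sorted by H2K-b and recipient cells by H2K-d. F1 cells carry both haplotypes, and the donor cells carry H2K-b in mIUT and H2K-d in pIUT.

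GATA1 is the DNA-binding factor without which red cell precursors do not mature. It works in a complex with TAL1 and the adaptors LMO2 and LDB1, and KLF1 then drives adult globin and red cell membrane genes. GFI1B represses progenitor genes during red cell and platelet formation, and NFE2 binds the globin control region with a small Maf partner and is also needed for platelet release. On the myeloid side, PU.1 (encoded by Spi1) is needed for macrophages, granulocytes and B cells, C/EBPα commits progenitors to the myeloid fate, C/EBPε drives the late granule proteins of neutrophils, and GFI1 represses monocyte genes in neutrophil precursors. GATA1 and PU.1 bind each other and restrain each other's activity. MYB keeps progenitors dividing and is lost as blood cells mature.

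The libraries held 38543457 to 47965130 counts each. At 3 counts or fewer a gene was treated as not detectable, which corresponds to 0.0547 to 0.105 CPM (counts per 1000000 counts, after scaling) depending on the library. Genes at 10 counts or more ranged from 9125 in recipient uninjected and 10016 in maternal mIUT to 16231 in recipient DC-depleted pIUT. Recipient uninjected and maternal mIUT also lacked the largest share of the genes that all other libraries expressed. Of the genes at 10 CPM or more in each of the other 7 libraries, 9.51% were under 1 CPM in recipient uninjected and 4.86% in maternal mIUT, against 0.0% to 1.26% in the other 6. Counts of 4 Y-linked genes, which a dam's own cells cannot give, summed to 0 in maternal uninjected, 4572 in maternal mIUT, 1481 in maternal pIUT and 989 after DC-depleted pIUT, beside 1427 to 3361 in the recipient libraries. The 3 maternal IUT libraries therefore held reads from male cells. H2-Ea, which B6 cells do not express and BALB/c cells do, had 0, 311, 0 and 178 counts in maternal uninjected, mIUT, pIUT and DC-depleted pIUT and 27, 339, 2728 and 3749 counts in the recipient libraries. How much of the RNA in the maternal libraries was of maternal origin was not tested. The leukocyte gene Ptprc was at 2.63 CPM in maternal DC-depleted pIUT and at 70.2 to 459 CPM in the other libraries. In bulk samples, fewer cells of a type and less RNA per cell cannot be told apart.

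The bases upstream of the start site are shown for 5 members, because the results below set Klf1 and Gfi1b beside each other and Spi1, Cebpe and Nfe2 beside each other. Each window holds the 250 bases before the GENCODE canonical start site, read 5′ to 3′ on the gene's strand from GRCm39. Capitals mark matches, on either strand, to a GATA word (AGATAA or, with another opening letter, TGATAA, and either of these ending in G instead), to a CACC-type word of the Krüppel-like factors (CCNCNCCC), to a PU.1 word (GAGGAA) or to a C/EBP word (TTGCNNAA). The windows lie at chr8:85628307-85628556 on the plus strand for Klf1, chr2:28511995-28512244 on the minus strand for Gfi1b, chr2:90926191-90926440 on the plus strand for Spi1, chr14:54949632-54949881 on the minus strand for Cebpe and chr15:103163867-103164116 on the minus strand for Nfe2.
Klf1: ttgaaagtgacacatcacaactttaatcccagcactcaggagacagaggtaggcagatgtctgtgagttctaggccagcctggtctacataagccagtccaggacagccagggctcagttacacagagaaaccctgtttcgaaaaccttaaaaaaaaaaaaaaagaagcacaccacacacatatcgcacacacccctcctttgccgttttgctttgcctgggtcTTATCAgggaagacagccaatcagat
Gfi1b: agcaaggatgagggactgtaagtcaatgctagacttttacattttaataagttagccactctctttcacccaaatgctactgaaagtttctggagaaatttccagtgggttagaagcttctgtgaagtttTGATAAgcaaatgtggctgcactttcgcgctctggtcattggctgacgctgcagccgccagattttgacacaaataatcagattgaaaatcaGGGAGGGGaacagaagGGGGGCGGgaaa
Spi1: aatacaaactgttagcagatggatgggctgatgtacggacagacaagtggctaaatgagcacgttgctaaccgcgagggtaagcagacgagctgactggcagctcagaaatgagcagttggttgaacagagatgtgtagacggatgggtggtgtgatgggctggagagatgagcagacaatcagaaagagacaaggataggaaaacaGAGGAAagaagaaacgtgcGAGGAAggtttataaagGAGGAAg
Cebpe: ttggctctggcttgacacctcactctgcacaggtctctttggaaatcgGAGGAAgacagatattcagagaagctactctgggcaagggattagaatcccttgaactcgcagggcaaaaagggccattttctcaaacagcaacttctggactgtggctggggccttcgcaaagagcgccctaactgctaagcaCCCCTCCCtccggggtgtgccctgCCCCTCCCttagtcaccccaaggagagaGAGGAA
Nfe2: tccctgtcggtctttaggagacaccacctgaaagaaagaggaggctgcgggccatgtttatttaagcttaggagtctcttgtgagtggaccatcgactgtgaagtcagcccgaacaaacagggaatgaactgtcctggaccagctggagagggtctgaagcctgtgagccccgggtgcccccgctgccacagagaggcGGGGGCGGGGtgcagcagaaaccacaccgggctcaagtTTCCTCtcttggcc

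The GATA word occurred in 2 of the 10 windows, once in Klf1 starting 26 bases before the start site and once in Gfi1b starting 120 bases before it. It occurred in 26.2% of the windows of 21537 protein-coding genes. The PU.1 word occurred 3 times in Spi1, 2 times in Cebpe, once in Nfe2 and once in Gata1, and in 23.0% of all windows. In Spi1 it started 43, 24 and 7 bases before the start site. The CACC-type word was found in 7 members (3 times each in Gata1 and Myb, 2 times each in Tal1, Gfi1b, Nfe2 and Cebpe, once in Gfi1) and in 48.8% of all windows. The 2 matches in Nfe2 overlapped each other. The C/EBP word was found in 0 of the 10 windows and in 9.37% of all windows. These are matches of letters and say nothing of binding, and a window without a match says only that these letters are not in it.

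The erythroid factors other than Nfe2 were at 2.20 CPM or less after mIUT and most abundant in maternal DC-depleted pIUT. Gata1 (ENSMUSG00000031162, chromosome X, 7825499 to 7844310, minus strand) had 1636 counts in maternal uninjected, 1 in maternal mIUT, 5932 in maternal pIUT and 13302 counts after DC-depleted pIUT. In the recipient libraries, in the same order, Gata1 had 45, 63, 324 and 2010 counts. Normalized, the maternal levels were 42.0, 0.0258, 117 and 403 CPM and the recipient levels 0.931, 2.20, 7.17 and 36.7 CPM. The level in maternal DC-depleted pIUT was thus above every other library, and each recipient level lay below the maternal level of its treatment except in mIUT. The antisense gene Gm14820 overlaps Gata1 and had 175, 174, 549 and 306 counts in the maternal and 0, 135, 451 and 632 counts in the recipient libraries, more than Gata1 itself in both mIUT libraries and in recipient pIUT. Whether the counting used strand is not given in the sources used here, and the part of these reads in the Gata1 counts was not tested.

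Klf1 (chromosome 8, 85628557 to 85631934, plus strand) had maternal levels of 120, 0, 335 and 552 CPM in uninjected, mIUT, pIUT and DC-depleted pIUT. Its recipient levels were 296, 0.732, 0.221 and 41.4 CPM, from 14310, 21, 10 and 2270 counts. Klf1 was therefore high in both uninjected libraries, under 1 CPM in both mIUT libraries, and on opposite sides in maternal and recipient pIUT (335 against 0.221 CPM). A protein-coding gene on the other strand, Gcdh, overlaps Klf1, and the same limit holds for it.

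Tal1, the partner of GATA1 in the erythroid complex (chromosome 4, 114913623 to 114928952, plus strand), had 353, 0, 2021 and 1914 counts in the maternal libraries and 1, 0, 55 and 421 counts in the recipient libraries. In CPM these were 9.07, 0, 40.0 and 58.0 in maternal and 0.0207, 0, 1.22 and 7.68 in recipient libraries. Gfi1b (chromosome 2, 28499462 to 28511994, minus strand) had 21.3, 0, 84.6 and 150 CPM in the maternal libraries and 97.8, 0, 2.81 and 20.4 CPM in the recipient libraries. Both genes had 0 counts in both mIUT libraries, and for Gfi1b this contrasts with 4728 counts in recipient uninjected.

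Nfe2 (chromosome 15, 103156526 to 103166830, minus strand) did not follow the other erythroid factors. Its maternal levels were 105, 502, 93.0 and 229 CPM and its recipient levels 117, 728, 203 and 138 CPM. The 2 highest values were those of the mIUT libraries, where the other 4 erythroid factors summed to their lowest levels (0.0258 and 2.93 CPM), and in no library was Nfe2 below 93.0 CPM.

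**Figure D1:**
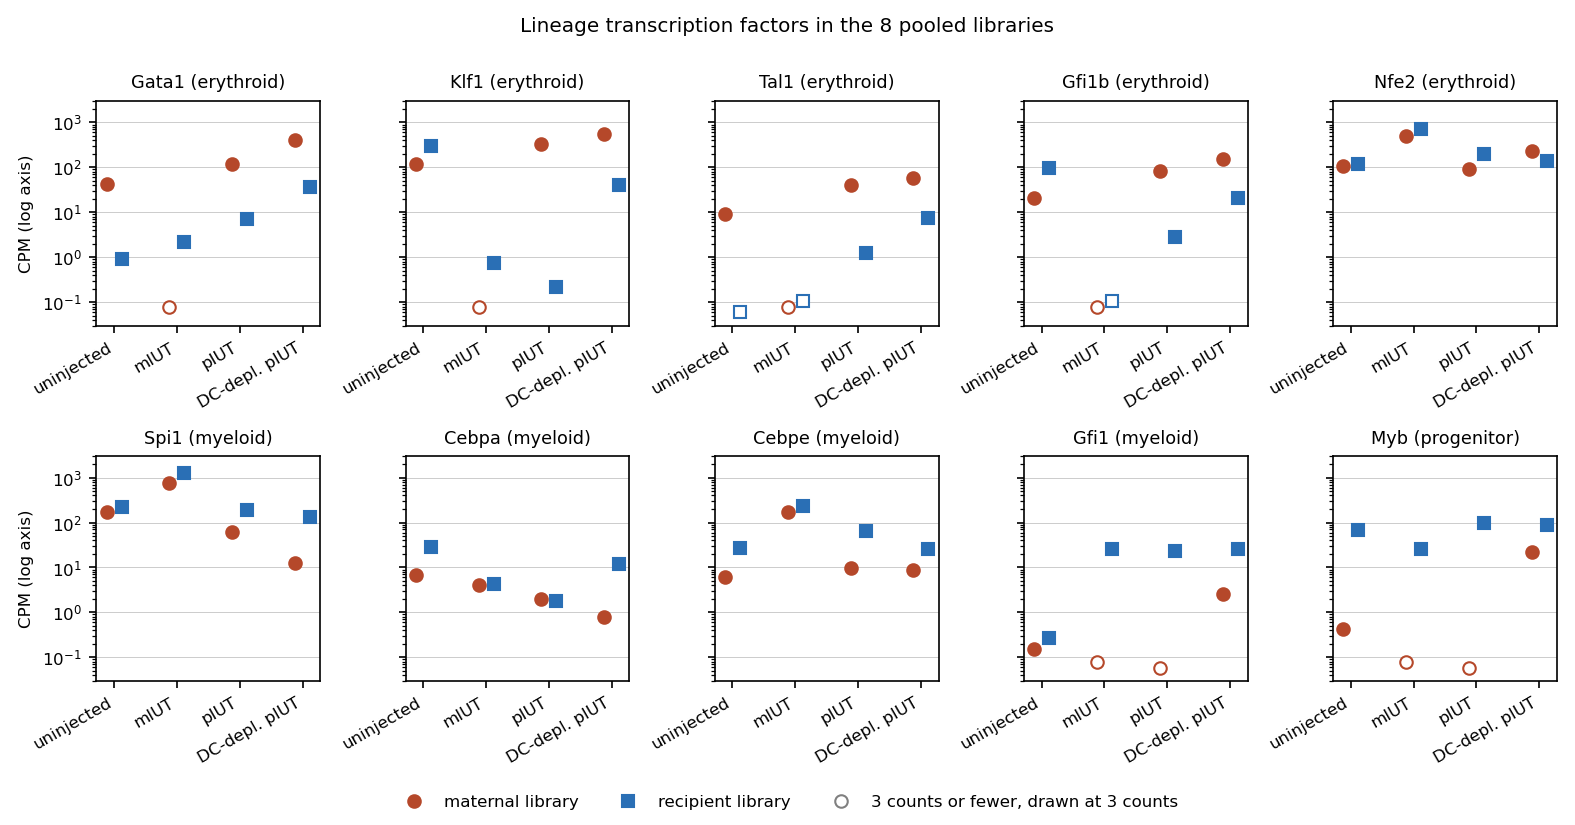
Levels of the 10 factors (CPM, log axis) by treatment, 1 pooled library per point, with circles for maternal and squares for recipient libraries; open symbols are libraries at 3 counts or fewer, drawn at the CPM of 3 counts. Gata1, Klf1, Tal1 and Gfi1b are at 2.20 CPM or less in the mIUT libraries, where Nfe2, Spi1 and Cebpe have their highest points (502 to 728, 739 to 1233 and 172 to 232 CPM).

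Among the myeloid factors, Spi1 and Cebpe peaked after mIUT in both origins. Spi1 (chromosome 2, 90912562 to 90946101, plus strand) was at 173, 739, 61.0 and 12.5 CPM in the maternal libraries and at 218, 1233, 193 and 132 CPM in the recipient libraries. The lowest Spi1 level, 12.5 CPM from 411 counts, was that of maternal DC-depleted pIUT, the library with the highest Gata1. Cebpe (chromosome 14, 54947817 to 54949631, minus strand) was at 6.27, 172, 9.85 and 8.96 CPM in the maternal libraries and at 27.5, 232, 65.2 and 25.5 CPM in the recipient libraries. The mIUT libraries were again the highest, and each recipient library exceeded the maternal library of its treatment for both genes.

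Cebpa (chromosome 7, 34818718 to 34821353, plus strand) had another order, with 6.71, 4.08, 2.04 and 0.787 CPM in the maternal libraries and 28.0, 4.22, 1.79 and 11.9 CPM in the recipient libraries. Its highest level was in recipient uninjected, and in the mIUT and pIUT libraries the 2 origins lay within 1.14-fold of each other. Gfi1 (chromosome 5, 107864523 to 107873902, minus strand) had 6, 0, 0 and 86 counts in the maternal libraries and 13, 726, 1034 and 1402 counts in the recipient libraries. The 3 recipient IUT libraries lay between 22.9 and 25.6 CPM and all others at 2.60 CPM or less. In maternal mIUT and recipient uninjected, where Gfi1 had 0 and 13 counts, the overlapping antisense gene A430072P03Rik had 308 and 436 counts.

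Myb (chromosome 10, 21000834 to 21036883, minus strand) had 17, 0, 0 and 721 counts in the maternal libraries, or 0.437, 0, 0 and 21.8 CPM. The recipient libraries had 3326, 727, 4512 and 4941 counts, or 68.8, 25.4, 99.9 and 90.1 CPM. The highest maternal level was below the lowest recipient level, which held for 1.48% of the 13353 genes tested across the origins (0.547% lay wholly the other way). By library size alone the nearest pair changed order, with 18.7 counts per 1000000 in maternal DC-depleted pIUT and 17.5 in recipient mIUT.

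Levels of different genes were compared per kilobase of exon. By the mean over the 8 libraries, Spi1 (114 CPM per kb, range 4.12 to 408) and Klf1 (109, range 0 to 358) were the most abundant, followed by Nfe2 (80.8, range 28.4 to 222) and Cebpe (55.1). Gata1 had a mean of 30.7 CPM per kb and Gfi1b of 25.7. Myb, Gfi1, Tal1 and Cebpa were lower, at 4.29, 3.01, 2.83 and 2.82 CPM per kb. The ranges of neighbours in this order overlapped, so the order of their means is not separated from the spread over libraries.

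All 10 members had more than 3 counts in maternal uninjected, maternal DC-depleted pIUT, recipient pIUT and recipient DC-depleted pIUT. In recipient uninjected 9 did, with Tal1 missing, and in maternal pIUT and recipient mIUT 8 did. In maternal mIUT only 4 members passed, namely Nfe2, Spi1, Cebpa and Cebpe, while Klf1, Tal1, Gfi1b, Gfi1 and Myb had 0 counts and Gata1 had 1.

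The balance between the lineages was expressed as the share of the erythroid factors in the summed counts of the 9 erythroid and myeloid factors. In the maternal libraries it was 61.5% in uninjected (95% exact binomial interval 60.8 to 62.2), 35.4% in mIUT (35.0 to 35.8), 90.2% in pIUT (89.9 to 90.5) and 98.2% in DC-depleted pIUT (98.1 to 98.4). In the recipient libraries it was 65.2% in uninjected (64.7 to 65.7), 32.9% in mIUT (32.5 to 33.2), 43.1% in pIUT (42.4 to 43.7) and 55.5% in DC-depleted pIUT (54.9 to 56.1). The 2 mIUT libraries thus had the lowest shares, and by summed counts maternal and recipient cells were far apart in both pIUT groups and near each other in uninjected and mIUT. By the geometric mean of the factors the uninjected shares were 86.9% in maternal and 41.7% in recipient cells. These intervals cover counting error only, since reads without molecular identifiers are not independent molecules and no replicate library exists.

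Nfe2 carried the erythroid side wherever the other factors were low. It made up 100% of the erythroid counts in maternal mIUT (19435 of 19436), 99.6% in recipient mIUT, 94.7% in recipient pIUT and 56.4% in recipient DC-depleted pIUT, against 13.9% to 35.2% in the other 4 libraries. Without Nfe2, a calculation added after the values were seen, the share was 50.8, 0.00282, 88.8 and 97.9% in the maternal libraries and 59.1, 0.196, 3.88 and 35.2% in the recipient libraries. Leaving out Nfe2 took recipient DC-depleted pIUT from above to below an even balance, and the geometric mean of the factors did so for recipient uninjected.

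**Figure D2:**
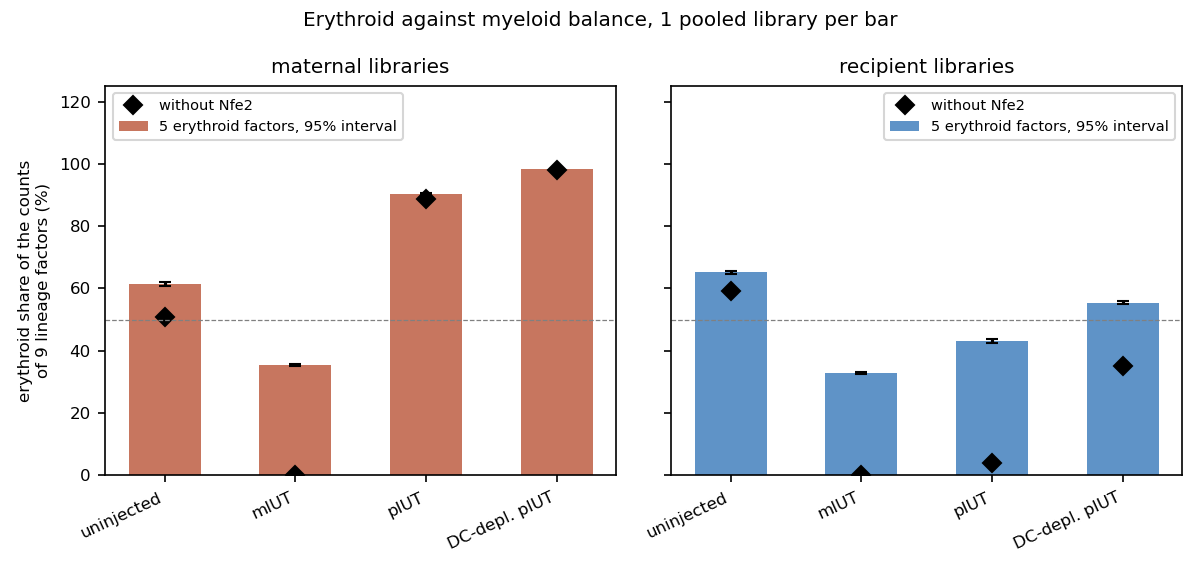
Erythroid share (%) of the summed counts of 9 lineage factors in each library, with bars for all 5 erythroid factors, error bars for the 95% exact binomial interval, diamonds for the share without Nfe2 and a dashed line at 50%. The diamonds lie near the bars in maternal pIUT (88.8 against 90.2%) and near 0 in both mIUT libraries.

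Each IUT library was compared with the uninjected library of its origin. In maternal mIUT, Klf1 was at least 1550-fold, Gfi1b at least 275-fold and Tal1 at least 117-fold lower than in maternal uninjected, against the CPM of 3 counts. The ratio for Gata1, from 1 count, was 0.000614 (95% interval 1.55e-05 to 0.00343). Nfe2, Spi1 and Cebpe were 4.79-fold (interval 4.63 to 4.96), 4.26-fold (4.15 to 4.38) and 27.4-fold (24.1 to 31.3) higher. Of the 10 members, 3 were at least 4-fold higher and 5 at least 4-fold lower, beside 16.9% and 34.3% of all genes tested. By library size alone Spi1 was short of 4-fold (log2 1.88), which left 2 higher, and with a floor of 10 counts Myb was (-0.758), which left 4 lower. Maternal mIUT is one of the libraries that lacked many genes, and its summed megakaryocyte markers were at 0.0517 CPM, with 0 of 7 over 3 counts, against 105 CPM in maternal uninjected. Hepatocyte markers summed to 4240 CPM in maternal mIUT (4 of 5 over 3 counts, with 3824 CPM from Apoa1 alone) and 42.1 CPM in maternal uninjected (5 of 5), and B cell markers to 307 CPM (3 of 5) and 6820 CPM (5 of 5). Their part in the result was not tested.

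In recipient mIUT, Klf1 was 404-fold lower than in recipient uninjected and Gfi1b at least 935-fold lower. Gfi1 was 94.2-fold (54.7 to 178), Cebpe 8.43-fold (7.95 to 8.95), Nfe2 6.20-fold (6.02 to 6.39) and Spi1 5.66-fold (5.54 to 5.79) higher, and Cebpa was 6.63-fold lower. Of the 9 members tested 4 were at least 4-fold higher and 3 at least 4-fold lower, beside 42.6% and 16.1% of all genes (3 and 3 by library size alone, with Spi1 at a log2 fold of 1.95). The comparison rests on recipient uninjected, where hepatocyte markers summed to 10200 CPM with 5 of 5 over 3 counts, against 25.6 CPM in recipient mIUT with 3 of 5. Of the sum in recipient uninjected, Afp gave 9055 CPM and Apoa1 1039 CPM, while Alb was at 19.7 CPM. Megakaryocyte markers summed to 371 CPM in recipient uninjected (3 of 7) and 4.67 CPM in recipient mIUT (4 of 7), eosinophil markers to 5450 (3 of 5) and 288 CPM (5 of 5) and macrophage markers to 1780 and 145 CPM (4 of 4 in both). Their part in the result was not tested.

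In maternal pIUT the erythroid factors other than Nfe2 were above maternal uninjected, with Tal1 4.40-fold (3.93 to 4.95), Gfi1b 3.98-fold (3.69 to 4.29), Gata1 2.79-fold (2.64 to 2.95) and Klf1 2.79-fold (2.70 to 2.88) higher. Spi1 was 2.84-fold and Cebpa 3.29-fold lower. Only Tal1 on the higher side and Myb on the lower side (at least 7.37-fold) were past 4-fold, beside 22.9% and 22.5% of all genes (2 higher and 1 lower under DESeq2 size factors or library size alone, 1 and 0 with a floor of 10 counts). In maternal DC-depleted pIUT the same 4 factors were further above uninjected, with Gata1 9.58-fold (9.10 to 10.1), Gfi1b 7.05-fold (6.55 to 7.60), Tal1 6.39-fold (5.70 to 7.18) and Klf1 4.60-fold (4.45 to 4.75) higher. Myb was 50.0-fold (31.0 to 86.3) and Gfi1 16.9-fold (7.45 to 47.3) higher there, while Spi1 was 13.9-fold and Cebpa 8.52-fold lower. This made 6 members at least 4-fold higher and 2 lower, beside 21.8% and 24.1% of all genes (5 and 2 by library size alone, with Klf1 at a log2 fold of 1.96). In uninjected, pIUT and DC-depleted pIUT, B cell markers summed to 6820 (5 of 5 over 3 counts), 49.7 (4 of 5) and 32.5 CPM (5 of 5), T cell markers to 1670 (6 of 6), 107 (5 of 6) and 378 CPM (5 of 6) and megakaryocyte markers to 105 (7 of 7), 9.63 (2 of 7) and 39.9 CPM (6 of 7), and Ptprc was at 229, 70.2 and 2.63 CPM. Their part in the result was not tested.

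In recipient pIUT the direction was split within the erythroid factors. Klf1 was 1340-fold lower than in recipient uninjected (ratio interval 0.000359 to 0.00138) and Gfi1b 34.8-fold lower, while Gata1, which its antisense gene limits as given above, was 7.71-fold higher (5.63 to 10.8) and Tal1, from 55 counts against 1, had a ratio of 58.9 (10.1 to 2370). Together with Gfi1 (85.2-fold higher) and Cebpa (15.6-fold lower), 3 members were at least 4-fold higher and 3 lower, beside 41.7% and 12.2% of all genes. Recipient DC-depleted pIUT showed the same split, with Klf1 7.15-fold and Gfi1b 4.79-fold lower, Gata1 39.4-fold higher (29.3 to 54.2), a Tal1 ratio of 371 (66.3 to 14700) and Gfi1 95.1-fold higher. There 3 members were higher and 2 lower by at least 4-fold, beside 42.9% and 9.99% of all genes (3 and 1 by library size alone, with Gfi1b at a log2 fold of -1.87). In recipient uninjected, pIUT and DC-depleted pIUT, hepatocyte markers summed to 10200 (5 of 5 over 3 counts, mostly Afp), 4.98 (3 of 5) and 553 CPM (5 of 5), eosinophil markers to 5450 (3 of 5), 1380 (5 of 5) and 1290 CPM (5 of 5), megakaryocyte markers to 371 (3 of 7), 18.0 (6 of 7) and 102 CPM (7 of 7), and T cell markers to 453, 3360 and 824 CPM (6 of 6 in each). Mast cell and basophil markers summed to 0.269 (1 of 5), 343 (5 of 5) and 768 CPM (5 of 5) in the same order. NK cell markers summed to 19.3 (2 of 4), 669 (4 of 4) and 782 CPM (4 of 4). Their part in the result was not tested. In recipient uninjected itself, Klf1 and Gfi1b had 14310 and 4728 counts while Gata1 had 45 and Tal1 1. Both splits rest on this same library, which lacked the largest share (9.51%) of the genes that all other libraries expressed.

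DC depletion was addressed by comparing DC-depleted pIUT with DC control pIUT, which involves neither of the libraries that lacked many genes. In recipient cells, Klf1 was 187-fold higher (102 to 391), Gfi1b 7.26-fold (6.04 to 8.79), Tal1 6.31-fold (4.75 to 8.51) and Gata1 5.11-fold (4.54 to 5.77) higher in DC-depleted pIUT, and Cebpa was 6.61-fold higher (5.24 to 8.44). Spi1 and Nfe2 were 1.46-fold and 1.48-fold lower and Cebpe 2.56-fold lower. Gfi1 and Myb differed by 1.12-fold and 1.11-fold. Thus 5 of 10 members were at least 4-fold higher and 0 lower, beside 13% and 6.53% of all genes, and the median log2 fold of the members was 1.26 against 0.116 over all genes tested. Markers of other cells that use GATA1 were also measured. Megakaryocyte markers summed to 102 CPM in DC-depleted pIUT (7 of 7 over 3 counts) and 18.0 CPM in pIUT (6 of 7), mast cell and basophil markers to 768 and 343 CPM (5 of 5 in both), and eosinophil markers to 1290 and 1380 CPM (5 of 5 in both). Among markers of other cells, those of hepatocytes summed to 553 CPM in DC-depleted pIUT (5 of 5) and 4.98 CPM in pIUT (3 of 5), those of macrophages to 679 and 216 CPM (4 of 4 in both) and those of T cells to 824 and 3360 CPM (6 of 6 in both). Their part in the result was not tested.

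In maternal cells the same comparison gave smaller folds in the erythroid factors other than Nfe2. Gata1 was 3.44-fold (3.33 to 3.54), Nfe2 2.46-fold (2.37 to 2.55), Gfi1b 1.77-fold (1.70 to 1.85), Klf1 1.65-fold (1.61 to 1.68) and Tal1 1.45-fold (1.36 to 1.55) higher in DC-depleted pIUT. Spi1 was 4.90-fold lower (ratio interval 0.184 to 0.226) and Cebpa 2.59-fold lower. Myb and Gfi1, with 0 counts in maternal pIUT, were at least 368-fold and at least 43.9-fold higher. Of the 10 members 2 were at least 4-fold higher and 1 lower, beside 24.4% and 26.3% of all genes. In DC-depleted pIUT and pIUT, granulocyte markers summed to 7720 (6 of 6 over 3 counts) and 1050 CPM (4 of 6), hepatocyte markers to 396 and 121 CPM (5 of 5 in both), T cell markers to 378 and 107 CPM (5 of 6 in both), megakaryocyte markers to 39.9 (6 of 7) and 9.63 CPM (2 of 7) and endothelial markers to 0.485 (1 of 4) and 37.9 CPM (3 of 4), and Ptprc was at 2.63 and 70.2 CPM. Their part in the result was not tested. All 5 erythroid factors were thus higher and Spi1 lower in both DC-depleted libraries than in their DC controls, except that Nfe2 was lower in the recipient one and that by library size alone Tal1 was slightly lower in the maternal one (log2 -0.044).

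**Figure D3:**
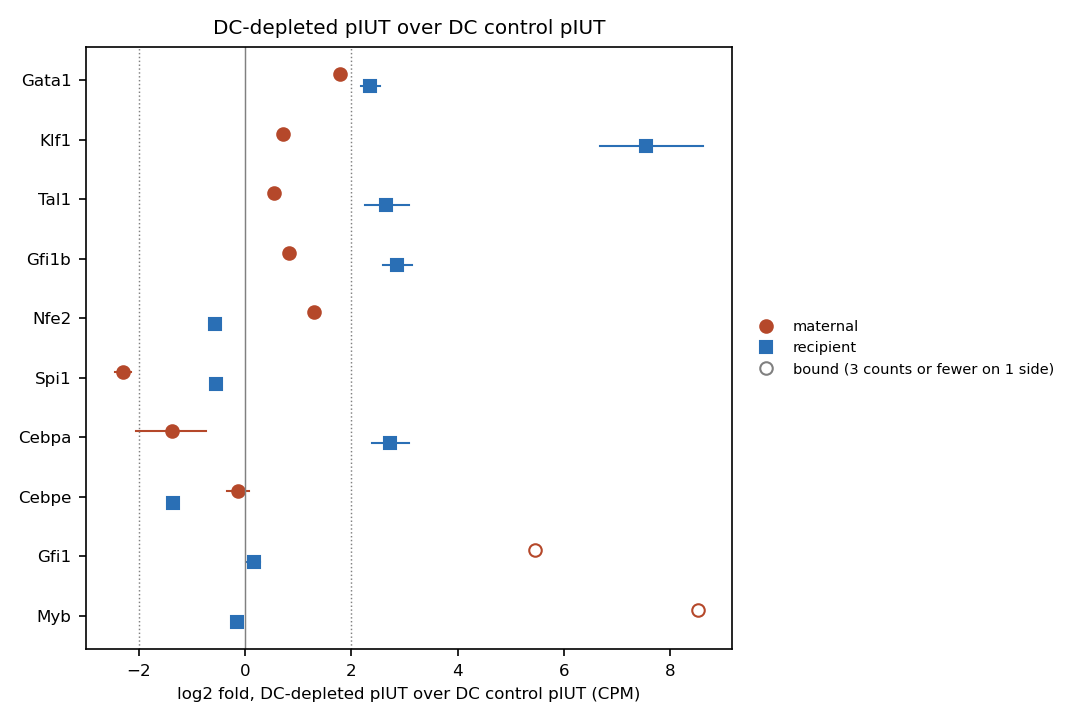
The log2 fold of each factor, DC-depleted pIUT over DC control pIUT, with circles for maternal and squares for recipient libraries, lines for the 95% exact interval of counting error, dotted lines at 4-fold and open symbols for bounds. Recipient Klf1 (7.55) and the bound for maternal Myb (8.52) lie farthest to the right, and maternal Spi1 (-2.29) farthest to the left.

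The 2 kinds of donor were compared through pIUT against mIUT. In maternal cells the 4 erythroid factors other than Nfe2 were past 4-fold higher in pIUT, at least 4320-fold for Klf1, and Nfe2, Spi1 and Cebpe were 5.40-fold, 12.1-fold and 17.4-fold lower, so that 4 of 8 members tested were higher and 3 lower, beside 35.3% and 18.5% of all genes (4 and 2 by library size alone, with Nfe2 at a log2 fold of -1.87). In recipient cells, without the libraries that lacked many genes, Gfi1b was at least 26.9-fold and Tal1 at least 11.6-fold higher, Gata1 3.27-fold and Myb 3.94-fold higher, and Spi1 6.38-fold, Nfe2 3.59-fold and Cebpe 3.56-fold lower. Klf1, with 10 counts against 21, was 3.31-fold lower (ratio interval 0.127 to 0.671). Past 4-fold were 2 members higher and 1 lower, beside 18.3% and 13.4% of all genes (4 and 0 by library size alone, 1 and 1 with a floor of 10 counts). In maternal pIUT and mIUT, granulocyte markers summed to 1050 (4 of 6 over 3 counts) and 115000 CPM (6 of 6) and hepatocyte markers to 121 (5 of 5) and 4240 CPM (4 of 5, mostly Apoa1). In recipient pIUT and mIUT, granulocyte markers summed to 36400 and 189000 CPM (6 of 6 in both), T cell markers to 3360 and 620 CPM (6 of 6 in both), NK cell markers to 669 (4 of 4) and 35.7 CPM (3 of 4), and mast cell and basophil markers to 343 and 59.8 CPM (5 of 5 in both). What part these cells had was not tested.

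Recipient cells were then set against maternal cells of the same treatment. In pIUT, Klf1 was 1510-fold, Tal1 32.8-fold, Gfi1b 30.1-fold and Gata1 16.3-fold lower in recipient cells, and Cebpe was 6.62-fold, Gfi1 at least 386-fold and Myb at least 1680-fold higher. This was 3 members higher and 4 lower by at least 4-fold, beside 23.5% and 17.6% of all genes. In DC-depleted pIUT the same 4 erythroid factors were lower, by 13.3-fold for Klf1, 11.0-fold for Gata1, 7.55-fold for Tal1 and 7.35-fold for Gfi1b. Cebpa was 15.1-fold (10.2 to 23.2), Spi1 10.6-fold (9.63 to 11.8), Gfi1 9.82-fold (7.90 to 12.4) and Myb 4.13-fold (3.82 to 4.47) higher, so that 4 members were higher and 4 lower, beside 25.7% and 9.31% of all genes (3 higher under DESeq2 size factors, 5 by library size alone). Markers of other cells also differed between the origins, and their part in the results was not tested. In recipient and maternal pIUT, T cell markers summed to 3360 (6 of 6 over 3 counts) and 107 CPM (5 of 6), eosinophil markers to 1380 (5 of 5) and 31.8 CPM (3 of 5), mast cell and basophil markers to 343 (5 of 5) and 0 CPM (0 of 5) and hepatocyte markers to 4.98 (3 of 5) and 121 CPM (5 of 5). In recipient and maternal DC-depleted pIUT, eosinophil markers summed to 1290 (5 of 5) and 69.7 CPM (3 of 5) and mast cell and basophil markers to 768 (5 of 5) and 11.3 CPM (4 of 5), and Ptprc was at 168 and 2.63 CPM.

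The uninjected and mIUT pairs differed from this. In uninjected cells Gfi1b (4.59-fold) and Klf1 (2.46-fold) were higher in recipient than in maternal cells, while Gata1 was 45.2-fold lower and Tal1 had a ratio of 0.00228 (5.76e-05 to 0.0128). Myb was 157-fold, Cebpe 4.39-fold and Cebpa 4.17-fold higher, giving 4 members higher and 2 lower, beside 14.2% and 38.7% of all genes. In mIUT, 4 of 8 members tested were at least 4-fold higher in recipient cells (Gata1, with 63 counts against 1, Klf1, Gfi1 and Myb) and 0 lower, beside 33.6% and 12.3% of all genes (3 and 0 with a floor of 10 counts). Nfe2, Spi1, Cebpa and Cebpe lay within 1.67-fold of each other in the mIUT pair. Hepatocyte markers summed to 10200 (mostly Afp) and 42.1 CPM in recipient and maternal uninjected (5 of 5 in both), and to 25.6 (3 of 5) and 4240 CPM (4 of 5, mostly Apoa1) in recipient and maternal mIUT. In recipient and maternal uninjected, mast cell and basophil markers summed to 0.269 (1 of 5) and 130 CPM (4 of 5) and NK cell markers to 19.3 (2 of 4) and 747 CPM (4 of 4). Eosinophil markers went the other way, with 5450 (3 of 5) and 27.1 CPM (2 of 5). The part of these cells in the results was not tested.

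**Figure D4:**
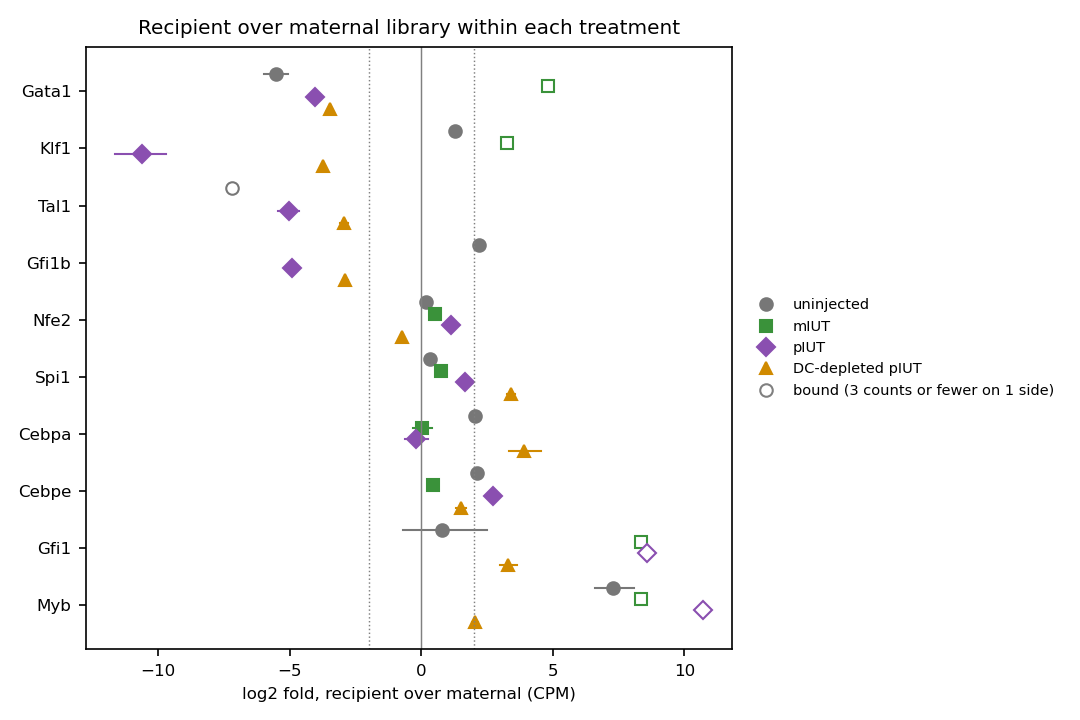
The log2 fold of each factor, recipient over maternal library, within each treatment (symbol and colour), with lines for the 95% exact interval of counting error, dotted lines at 4-fold and open symbols for bounds. Gata1, Klf1, Tal1 and Gfi1b lie to the left in both pIUT groups, and Spi1, Cebpe, Gfi1 and Myb to the right in all treatments. The ratio interval for Gfi1 in uninjected, 0.618 to 5.59, includes no difference.

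Origin, with 4 libraries a level, was tested with edgeR's quasi-likelihood test over all 8 libraries with treatment as a term. The test called 0 of 13353 genes, or 0.0% in each direction, at an adjusted p under 0.05. At an unadjusted p under 0.05 there were 273 genes, and DESeq2 called 294 (2.2%). Myb was higher in the recipient library in 4 of 4 treatments, with a log2 difference of 8.79 (edgeR adjusted p = 1.0). DESeq2 called it at a log2 difference of 9.28 (adjusted p = 2.95e-05). In edgeR the difference for Myb was 3.60 without the treatment term and 6.98 to 11.1 when 1 treatment was left out. Gfi1 was also higher in 4 of 4, by 6.79 on the log2 scale (edgeR adjusted p = 1.0), and was called by DESeq2 (7.09, adjusted p = 0.0219). In the uninjected pair the direction of Gfi1 is not settled, with 13 against 6 counts (ratio interval 0.618 to 5.59). For Gfi1 the edgeR difference was 4.67 without the treatment term and 3.75 to 10.3 when 1 treatment was left out. Spi1 and Cebpe were higher in 4 of 4 treatments, by 1.45 and 1.66 on the log2 scale, and were called by neither tool. Gata1 and Gfi1b were higher in the recipient library in 1 of 4 treatments, and their differences of -3.30 (-4.41 to -2.26 when 1 treatment was left out) and -2.26 (-3.86 without uninjected to -0.36 without pIUT) were likewise not called. Tal1 was higher in the recipient library in 0 of 4 treatments, with a difference of -5.07 (-6.15 to -3.86; edgeR adjusted p = 1.0) and, in DESeq2, of -4.52 (adjusted p = 0.0521). For Tal1 and Gfi1b the mIUT pair had 0 counts in both libraries and gives no direction. Klf1 was higher in 2 of 4, and its difference of -1.44, not called, turned to 0.89 without pIUT and 0.75 without DC-depleted pIUT. The 4 libraries of an origin are 4 treatments, so the error in this test is the variation of the origin difference among treatments.

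Genes that the factors are known to control were then set beside them. The sum of Gata1, Klf1, Tal1 and Gfi1b was 192, 0.0258, 577 and 1160 CPM in the maternal and 395, 2.93, 11.4 and 106 CPM in the recipient libraries. The 4 adult globin genes Hba-a1, Hba-a2, Hbb-bs and Hbb-bt, which are near-identical pairs whose reads may be divided arbitrarily and were therefore summed, took 9.17, 1.81, 16.4 and 15.4% of all counts in the maternal libraries and 12.4, 0.0144, 4.51 and 3.41% in the recipient libraries. Maternal pIUT, maternal DC-depleted pIUT and both uninjected libraries had the highest sums of the factors and of the globins, but the globins spanned a smaller range. The relation did not hold throughout. The factors were higher and the globins lower in DC-depleted pIUT than in pIUT, in both origins, and in recipient than in maternal mIUT. Maternal mIUT held 805259 globin counts and 5857 counts of Alas2, the erythroid enzyme that starts heme synthesis, with 0 counts of Klf1, Tal1 and Gfi1b. Recipient pIUT held 1803422 globin counts and 21646 of Alas2 with 10 of Klf1, while Epor, the erythropoietin receptor gene that precursors express, was at 1.79 CPM there and at 0 counts in maternal mIUT.

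Slc4a1, which encodes the red cell anion exchanger band 3, was also compared with the globins. It was at 180, 33.9, 763 and 192 CPM in the maternal libraries and at 344, 0, 5.38 and 37.2 CPM in the recipient libraries. Its level was lower in recipient pIUT than in recipient DC-depleted pIUT, whereas the summed globins were higher in pIUT. For Hbb-bs the levels were 14880 and 9818 CPM.

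Of 20 listed erythroid targets 19 were in the table. In recipient DC-depleted pIUT against pIUT 8 were at least 4-fold higher and 0 lower, beside 13% and 6.53% of all genes (median log2 1.34 against 0.116 over all genes). In maternal cells 1 was higher and 3 lower, beside 24.4% and 26.3% (median -0.13 against 0.101, and 0 and 4 under either other scaling). Against the uninjected library, 0 targets were higher and 18, 14 and 12 lower in recipient mIUT, pIUT and DC-depleted pIUT (8 in the last by library size alone), beside 42.6, 41.7 and 42.9% of all genes higher and 16.1, 12.2 and 9.99% lower. In maternal mIUT 0 of 18 tested were higher and 13 lower, in maternal pIUT 6 were higher and 0 lower, and in maternal DC-depleted pIUT 4 were higher and 1 lower. Of all genes, 16.9, 22.9 and 21.8% were higher and 34.3, 22.5 and 24.1% lower in these 3 maternal comparisons. Between pIUT and mIUT, 16 of 19 were higher in maternal and 9 of 15 in recipient pIUT, and 0 lower in either, beside 35.3% and 18.3% of all genes higher and 18.5% and 13.4% lower. In recipient against maternal cells, 0 were higher and 13 lower in pIUT (23.5% and 17.6% of all genes), 1 higher and 11 lower in DC-depleted pIUT (25.7% and 9.31%, and 7 targets lower by library size alone), 2 higher and 8 lower of 14 in mIUT (33.6% and 12.3%) and 3 higher and 0 lower in uninjected (14.2% and 38.7%).

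Partners of the erythroid factors were listed as well. Among these 15 genes, Tcf3, which pairs with TAL1, was at 50.4 to 169 CPM in all 8 libraries, and E2f2, a cell cycle factor of red cell precursors, at 40.6 to 133 CPM. Lmo2, the adaptor between TAL1 and GATA1, was at 78.3, 12.6, 103 and 186 CPM in the maternal and 82.4, 35.0, 21.7 and 60.3 CPM in the recipient libraries. The demethylase gene Kdm1a, which acts with GFI1B, had 1 count in maternal mIUT and 21.0 to 108 CPM in the other libraries. In DC-depleted pIUT against pIUT, 0 partners were at least 4-fold higher and 6 of 14 lower in maternal cells, beside 24.4% and 26.3% of all genes, and 2 of 15 higher and 0 lower in recipient cells, beside 13% and 6.53%. In recipient against maternal cells, 3 were higher and 3 lower in pIUT, beside 23.5% and 17.6% of all genes, and 5 higher and 0 lower in DC-depleted pIUT, beside 25.7% and 9.31%.

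The summed level of 15 listed granulocyte genes, which include late granule proteins downstream of C/EBPε, primary granule proteins and receptors, was highest in the 3 libraries in which Cebpe was highest, and in the same order. These genes took 0.278, 15.5, 0.263 and 0.954% of all counts in the maternal libraries and 1.78, 20.2, 5.80 and 2.94% in the recipient libraries. The most abundant were Ngp (neutrophilic granule protein), S100a9 and S100a8, and Ngp ranged from 132 CPM in maternal uninjected to 76910 CPM in recipient mIUT. Csf3r, the receptor of the granulocyte growth factor, had 0 counts in maternal DC-depleted pIUT, where Spi1 was lowest, and 75.9 to 604 CPM in the other libraries. Elane and Prtn3, which encode primary granule proteases of early precursors, had 0 counts in maternal pIUT and were highest in recipient DC-depleted pIUT, at 1806 and 894 CPM. Mpo, Ctsg and Ms4a3 were highest there too, at 10460, 563 and 475 CPM, so that 5 of the 15 genes peaked in recipient DC-depleted pIUT and the other 10 in recipient mIUT. How many of all genes peaked in these libraries was not counted. Mpo, the myeloperoxidase gene, was at 1106 and 998 CPM in maternal and recipient mIUT.

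**Figure D5:**
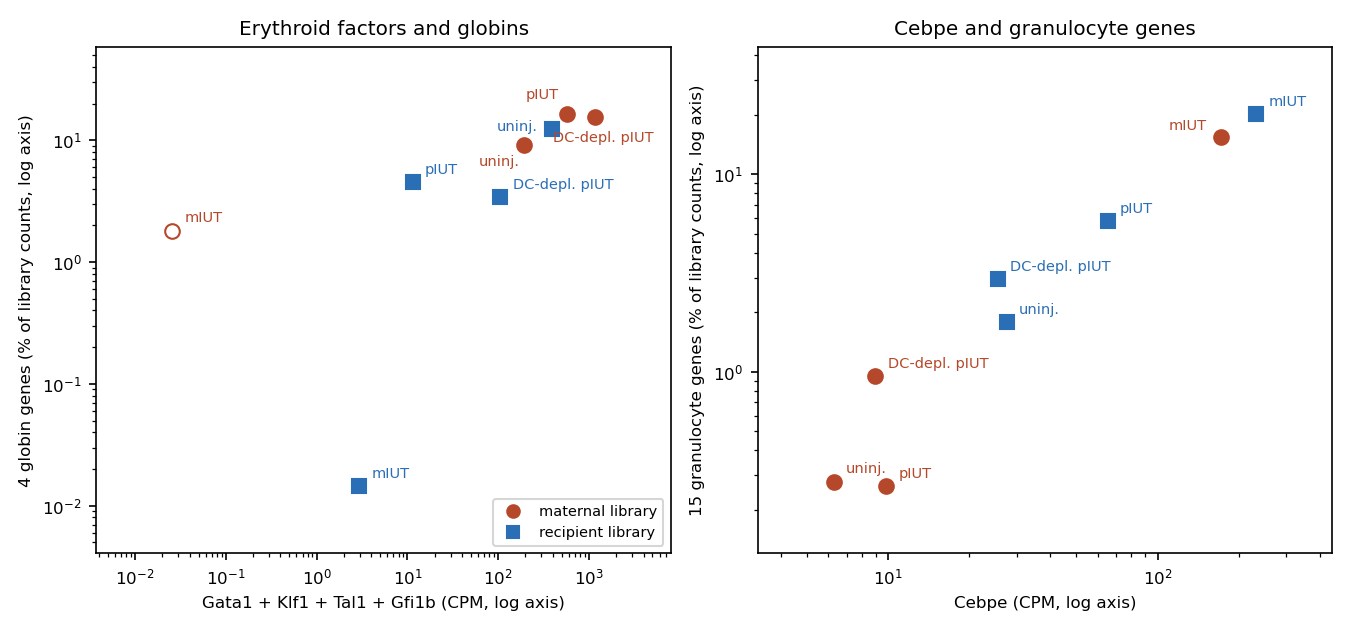
Left, the summed level of Gata1, Klf1, Tal1 and Gfi1b (CPM, log axis) against the share of 4 globin genes in the library (%, log axis); right, Cebpe (CPM, log axis) against the share of 15 granulocyte genes (%, log axis), 1 point per library, the open circle standing for 1 count. On the left maternal mIUT (0.0258 CPM, 1.81%) and recipient pIUT (11.4 CPM, 4.51%) keep globins at low factor levels, and on the right the mIUT libraries lie at the top (15.5 and 20.2%).

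Counted gene by gene, 14 of 15 granulocyte genes were at least 4-fold higher and 0 lower in maternal mIUT than in maternal uninjected, 0 higher and 4 lower in maternal pIUT, and 6 higher and 3 lower in maternal DC-depleted pIUT. Of all genes, 16.9, 22.9 and 21.8% were higher and 34.3, 22.5 and 24.1% lower there. Against recipient uninjected, 9 were higher and 2 lower in recipient mIUT, 4 higher and 5 lower in pIUT (7 and 5 by library size alone), and 0 higher and 2 lower in DC-depleted pIUT (2 and 2), beside 42.6, 41.7 and 42.9% of all genes higher and 16.1, 12.2 and 9.99% lower. DC-depleted pIUT against pIUT gave 8 higher and 3 lower in maternal cells, beside 24.4% and 26.3% of all genes, and 5 higher and 8 lower in recipient cells, beside 13% and 6.53%. Between pIUT and mIUT, 0 were higher in either origin and 14 lower in maternal and 9 in recipient cells (3 by library size alone), beside 35.3% and 18.3% of all genes higher and 18.5% and 13.4% lower. In recipient against maternal cells, 10, 0, 13 and 8 were higher in uninjected, mIUT, pIUT and DC-depleted pIUT, beside 14.2, 33.6, 23.5 and 25.7% of all genes, and 0 lower in any, beside 38.7, 12.3, 17.6 and 9.31%.

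Other myeloid factors did not all share the pattern of Spi1. Cebpb, a factor of activated macrophages and emergency granulocyte production, was at 25.3 CPM in maternal DC-depleted pIUT and at 207 to 764 CPM in the other libraries. Cebpd was highest in the mIUT libraries, at 230 and 346 CPM, and at 16.4 to 65.7 CPM in the rest. Irf8, which directs monocytes and DC and restrains granulocyte formation, was at 420, 64.2, 9.81 and 6.09 CPM in the maternal and at 114, 38.8, 170 and 193 CPM in the recipient libraries. Nr4a1, a nuclear receptor of patrolling monocytes, had 3 counts in maternal mIUT and 144 CPM in maternal uninjected. In DC-depleted pIUT against pIUT, 0 of 9 were at least 4-fold higher and 6 lower in maternal cells, beside 24.4% and 26.3% of all genes, and 0 of 10 higher and 0 lower in recipient cells, beside 13% and 6.53%. In recipient against maternal cells, 2 were higher and 2 lower in pIUT, beside 23.5% and 17.6% of all genes, and 7 higher and 0 lower in DC-depleted pIUT, beside 25.7% and 9.31%.

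Of the 10 monocyte and macrophage genes downstream of PU.1, Lyz2 (lysozyme) was at 13900, 16690, 458 and 1488 CPM in the maternal and at 24060, 35300, 10420 and 4890 CPM in the recipient libraries. Cybb, the catalytic subunit of the phagocyte oxidase, was at 448, 1075, 29.6 and 14.7 CPM in the maternal libraries, in the order of Spi1, and at 284 to 1993 CPM in the recipient libraries. Cd14, the coreceptor for endotoxin, was highest in maternal pIUT, at 1012 CPM. Adgre1, which encodes the macrophage marker F4/80, had 0 counts in maternal mIUT and 5.82 to 713 CPM elsewhere. In DC-depleted pIUT against pIUT, 2 were at least 4-fold higher and 2 lower in maternal cells (0 and 2 by library size alone), beside 24.4% and 26.3% of all genes, and 1 higher and 0 lower in recipient cells, beside 13% and 6.53%. In recipient against maternal cells, 6 were higher and 2 lower in pIUT, beside 23.5% and 17.6% of all genes, and 7 higher and 0 lower in DC-depleted pIUT, beside 25.7% and 9.31%.

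Beside Myb, 11 progenitor genes were listed. Myc was at 9.90 to 111 CPM, Fli1, an ETS factor of stem cells and megakaryocytes, at 1.06 CPM in maternal DC-depleted pIUT and at 111 CPM (the highest level) in recipient uninjected, and Etv6 at 3.18 to 166 CPM. In recipient DC-depleted pIUT against pIUT 6 of 11 were at least 4-fold higher and 0 lower, beside 13% and 6.53% of all genes, and Myb itself was 1.11-fold lower (log2 0.082 higher by library size alone). In maternal cells 4 of 10 were higher (1 with a floor of 10 counts) and 3 lower, beside 24.4% and 26.3% of all genes. In recipient against maternal cells, 3 of 8 were higher and 2 lower in pIUT, beside 23.5% and 17.6% of all genes, and 7 of 11 higher and 0 lower in DC-depleted pIUT, beside 25.7% and 9.31%.

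For Gata1 and Spi1, the genes with the most similar profile over the 8 libraries were sought among 13417 genes, by the root mean square difference of centred log2(CPM + 0.5) values. Tal1 was the most similar to Gata1 (difference 0.784), followed by Hyal2 (0.80) and Endod1 (0.859), while Gfi1b ranked 1556, Klf1 5047 and Nfe2 10173. In recipient uninjected Gata1 was at 0.931 CPM and Tal1, Hyal2 and Endod1 at 0.0207 CPM or less, against 97.8 CPM for Gfi1b and 296 CPM for Klf1. That library lacked many genes, and how far the order rests on it was not tested. The most similar to Spi1 were Rflnb (0.299), Dok3 (0.313) and S100a11 (0.322). Among members, Cebpe ranked 388, Nfe2 1405 and Cebpa 2599 in likeness to Spi1, and Klf1 was near the other end at 13365. Nfe2 was by this measure nearer to Spi1 than to Gata1, which is a description of 8 libraries.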

How the data were processed

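RNA of sorted trafficked maternal and recipient cells was sequenced in 8 pooled libraries. The authors deposited estimated counts per gene, not normalized, written by salmon in the nf-core pipeline against GRCm39, while the study's methods name featureCounts with the GENCODE M26 annotation; tool versions and the use of strand are not given in the sources used here. The submitters' processing notes also list bcl2fastq and StringTie. All 8 columns were used and 0 were left out. Before use the estimates were rounded to integers. Among 52784 genes, 97.99% matched GENCODE vM39, which gave symbols, positions and exon lengths.

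CPM is the count over the library's total times its TMM factor (edgeR 4.0.16, R 4.3.3). Fold intervals are conditional exact binomial intervals and shares have Clopper-Pearson intervals, both at 95% and covering counting error only. A library at 3 counts or fewer was set to 3 for a fold, which is then a bound; against a library with 1 to 3 counts the ratio is printed with its interval. A fold was counted from 4, over genes with more than 3 counts in 1 of the 2 libraries. Treatments were not tested against each other, and each origin has 1 library a treatment. Origin was tested with edgeR's quasi-likelihood test (filterByExpr, treatment as a term, Benjamini-Hochberg adjustment, adjusted p under 0.05), checked on simulated data in which 100% of 200 genes changed by 3 on the log2 scale among 13353 were recovered. That simulation gave every treatment the same mean per gene with a fixed, small spread, so it held no variation among treatments. It therefore does not show what size of difference the test can detect in these data. Nothing says that the libraries of an origin are independent cultures or litters.

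The genes named are all 10 members, from each other list the 3 with the highest mean CPM and any at 3 counts or fewer in exactly 1 library and over 100 in all others, and the 3 genes most like Gata1 and Spi1 among those with at least 10 counts in at least 4 libraries. 1 gene that the rule names is not reported here. Epor, Alas2, Mpo, Ctsg, Ms4a3, the Y-linked genes and genes overlapping a member were named after their values were seen. Gene lists covered erythroid partners and targets, other myeloid factors, granulocyte and monocyte or macrophage targets, progenitor genes, lymphoid factors and cell type markers. The members and lists were chosen with earlier results of these data known. Alternatives were DESeq2 1.42.0 size factors and test, library size alone, a floor of 10 counts, other forms of the share, no filter, no treatment term, and leaving out each treatment. Scripts ran under Python 3.11.15 with scipy 1.17.1, numpy 2.4.6, matplotlib 3.10.9 and pandas 2.3.3.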

Additional observations from a re-analysis of the deposited data

Results flagged for a closer look

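By summed counts, the erythroid share of the factors moved in opposite directions in maternal and recipient cells after pIUT. Relative to the uninjected library of the same origin it was 28.7 percentage points higher in maternal pIUT and lower in recipient pIUT (-22.1 points), and 36.7 points higher in maternal DC-depleted pIUT and lower in recipient DC-depleted pIUT (-9.7 points). By the geometric mean of the factors the recipient share was instead higher in DC-depleted pIUT than in uninjected, 50.0% against 41.7%. Klf1 in DC-depleted pIUT over uninjected was 2.20 on the log2 scale in maternal (1.96 by library size alone) and -2.84 in recipient cells. Gfi1b was 2.82 in maternal and -2.26 in recipient cells (-1.87 by library size alone). With 1 library a group, none of these differences between origins was tested. The recipient values rest on recipient uninjected, the library that lacked the most genes.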

How the results depend on the processing

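No member's fold past 4-fold turned its direction under DESeq2 size factors, library size alone or a floor of 10 counts. Smaller folds did, such as maternal Tal1 in DC-depleted pIUT over pIUT by library size alone. Library size alone shifted the median of all genes by up to 0.71 on the log2 scale (recipient pIUT over mIUT) and DESeq2 size factors by up to -0.31 (recipient over maternal pIUT).

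The erythroid share depended on how the factors were weighed. In the order uninjected, mIUT, pIUT and DC-depleted pIUT, without the factor of each side with the highest summed CPM, not corrected for length (Nfe2 and Spi1), it was 93.6, 0.0147, 98.0 and 98.9% in maternal and 87.6, 1.11, 11.3 and 62.8% in recipient cells. The share without Nfe2, chosen after seeing the data, was 50.8, 0.00282, 88.8 and 97.9% and 59.1, 0.196, 3.88 and 35.2%. Per kilobase of exon it was 68.3, 28.5 and 92.3% in the first 3 maternal and 72.8, 27.0 and 35.0% in the first 3 recipient libraries, and as a geometric mean 86.9, 1.95 and 97.9% and 41.7, 1.44, 13.4 and 50.0%. The other values stayed within their intervals. Recipient uninjected by the geometric mean and recipient DC-depleted pIUT without Nfe2 crossed an even balance.

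Of the counts past 4-fold, members higher in maternal pIUT than in uninjected were 2 under both other scalings, and those lower were 0 with a floor of 10. Members lower in recipient DC-depleted pIUT than in uninjected were 1 by library size alone. In recipient pIUT over mIUT, members higher were 4 by library size and 1 with a floor of 10, and those lower 0 by library size. For the lists, erythroid targets higher were 0 under both other scalings in maternal DC-depleted pIUT over pIUT, 1 under both and 0 with a floor of 10 in recipient over maternal mIUT, and those lower 7 by library size in recipient over maternal DC-depleted pIUT. By library size, granulocyte targets higher were 7 and 2 in recipient pIUT and DC-depleted pIUT over uninjected and those lower 3 in recipient pIUT over mIUT. In DC-depleted pIUT over pIUT, monocyte and macrophage targets higher were 0 in maternal and 2 in recipient cells and other myeloid factors higher 1 in recipient cells by library size, and progenitor genes higher were 1 in maternal cells with a floor of 10. The cause was not tested.

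The origin test called 0 genes with edgeR in every setting, leave-one-out fits included (0 to 0), with 136 to 738 genes at an unadjusted p under 0.05 in the latter, and 239 higher and 55 lower with DESeq2. The treatment term pairs the maternal and recipient library of a treatment, and without it edgeR also called 0 genes (121 at an unadjusted p under 0.05). At 3 counts the depth limits detection to 0.0547 to 0.105 CPM.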

Other observations

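Of 12 listed lymphoid factors, 7 were highest in maternal uninjected, 3 in recipient pIUT, 1 in recipient mIUT and 1 in recipient uninjected. The share of all genes that were highest in each library was not counted, so these counts have no background. Tcf7, a factor of T cells and their precursors, was at 249, 15.3, 41.7 and 7.03 CPM in maternal uninjected, mIUT, pIUT and DC-depleted pIUT and at 219, 51.5, 706 and 120 CPM in the recipient libraries. Lef1 was at 162 CPM in maternal uninjected, had 0 counts in maternal pIUT and was at 143 CPM in recipient pIUT. Ikzf1, which acts across lymphoid and other blood lineages, was at 20.0 to 160 CPM, highest in recipient mIUT, and Id3, an inhibitor of E proteins, had 0 counts in recipient uninjected. Of the 12 lymphoid factors, 9 were at least 4-fold higher and 0 lower in recipient than in maternal DC-depleted pIUT, beside 25.7% and 9.31% of all genes, and 6 of 11 higher and 1 lower in pIUT, beside 23.5% and 17.6%. DC-depleted pIUT over pIUT gave 4 of 10 higher and 3 lower in maternal cells, beside 24.4% and 26.3% of all genes, and 1 of 12 higher and 1 lower in recipient cells, beside 13% and 6.53%.

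B cell markers, whose cells also use PU.1, summed to 6820 CPM in maternal uninjected and 1260 CPM in recipient uninjected, with 5 of 5 over 3 counts in both, and to 32.5 to 307 CPM in the IUT libraries. T cell markers were highest in recipient pIUT at 3360 CPM. Gata2, a progenitor and mast cell factor that GATA1 replaces during red cell formation, was chosen after its values were seen. It was at 18.4 CPM in maternal uninjected, had 0 counts in the 3 maternal IUT libraries and in recipient uninjected, and was at 3.59, 6.22 and 34.7 CPM in recipient mIUT, pIUT and DC-depleted pIUT. Mast cell and basophil markers summed to 59.8, 343 and 768 CPM in the same 3 recipient libraries.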
